A study of Mus musculus with 6 samples.

Results

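The genes that flank Cux2 on mouse chromosome 5 were followed in cerebral cortex of mice with and without an intact Cux2 gene. Cux2 encodes a Cut-family homeodomain protein that marks neurons of the upper cortical layers. The 52 listed genes were chosen by their place, 29 before Cux2 and 23 after it in chromosome order, and their probes were taken by the gene name printed on the array. Of the 52 genes, 47 had at least 1 probe under that name, with 88 probes in all of the 41174 on the array. RNA came from cortex of male mice, 3 of them titled as Cux2 knock-out with the genotype Cux2-/- (samples 53, 48 and 54) and 3 titled as wild type (samples 15, 62 and 16), each on a 1-colour Agilent array of its own. The genotype label of the wild-type titles reads Cux2+/-, so these samples are called controls here. The labels give neither the age nor the strain, nor how the allele was made, and they do not say outright that the samples are separate animals, so p-values cover only the spread among these 6 samples, which may be technical.

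Genes that lie close to an engineered allele are inherited together with it, which is why the neighbours of a targeted gene are looked at as a group of their own. The genes around Cux2 share no single pathway. They include mitochondrial enzymes, purinergic and proton channels, regulators of growth-factor signalling, ubiquitin ligases, DNA and RNA factors and a muscle myosin chain. Levels are log2 signals relative to the 75th percentile of each array, so a level of 0 is the signal that 75% of the array's probes do not exceed, and differences are knock-out minus control on the same log2 scale. Levels are not compared between probes, because each probe binds with its own strength.

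Probes of Cux2 itself carried older names on the array. The probe named Cutl2, made to the Cux2 transcript, read -0.04, 0.27 and 0.03 in controls 15, 62 and 16, and -0.04, -0.05 and -0.01 in knock-outs 53, 48 and 54. The groups overlapped, with a difference of -0.12 (SE 0.099, limma adjusted p = 0.838). A second probe was made to a cDNA listed as a synonym of Cux2, and it differed by 0.08 (SE 0.153). The sources used here do not say whether either probe lies in the deleted part, so these probes do not check the labels, and knock-out below means labelled so.

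Between 58.5% and 72.7% of all probes were well above background on an array, and between 73 and 81 of the 88 probes of the listed genes. Across the tested listed probes the arrays correlated at 0.996 to 0.998 within groups and at 0.990 to 0.995 between groups (Pearson's r across probes, which are not independent replicates). The 6 arrays lay on 2 slides, with control 15 and knock-outs 48 and 54 on slide 1 and controls 62 and 16 and knock-out 53 on slide 2. Marker genes of brain cell types were each taken by the brightest tested probe. By these, 6 of 6 microglial genes and 4 of 4 astrocyte genes were lower in the knock-outs, 5 and 2 of them at an unadjusted p under 0.05 and 0 past adjustment. Of 5 tested striatal genes 5 were lower, 1 of them at an unadjusted p under 0.05 and 0 past adjustment. Their median difference was -0.52, beside -0.45 for the microglial genes. Of 3 general neuronal genes 1 was lower. Lower too were 4 of 4 interneuron genes, 3 of 3 tested deep-layer genes and 3 of 3 meningeal genes. Of these, 1 interneuron gene had an unadjusted p under 0.05 and 0 genes passed adjustment. Of 3 tested upper-layer genes 2 were lower and 1 higher, and so it was for 3 oligodendrocyte genes. In the other direction, 3 of 3 red blood cell genes, 3 of 3 vessel genes and 3 of 3 choroid plexus genes were higher, with 0 past adjustment. In whole cortex, fewer cells of a type and less RNA per cell cannot be told apart.

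Tested probes had to be well above background on every array of the controls, of the knock-outs or of both. Of the 88 probes, 77 passed, from 43 genes, and 71 of these were above background on all 6 arrays. A probe can pass this filter through 1 group alone. Tbx5 (2 probes) and Pla2g1b and Hpd (1 probe each) were above background on no array. Tbx5 is a transcription factor of heart and forelimb, Pla2g1b is the pancreatic phospholipase A2 and Hpd is an enzyme of tyrosine breakdown in liver. Rad9b, a paralogue of the DNA damage clamp subunit Rad9, was above background on 2 arrays of each group and was not tested.

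Of the 77 probes, 1 passed the threshold of an adjusted p of 0.05, and it was lower in the knock-outs. Over all 25507 tested probes, 33 passed, which is 0.129%, with 20 lower (0.0784%) and 13 higher (0.051%). At an unadjusted limma p under 0.05 there were 10 listed probes, 8 lower and 2 higher, or 13% against 7.95% of all tested probes (4.07% lower and 3.89% higher). The knock-out arrays lay below all controls for 12 listed probes and above all controls for 2, against 6.65% and 6.46% of all tested probes. The 8 and the 12 both include the Myl2 probe and the dimmer P2rx7 probe, which passed the filter through the controls alone. So of the 43 listed genes with a tested probe, 1, Aldh2, held a called difference.

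**Figure D1:**
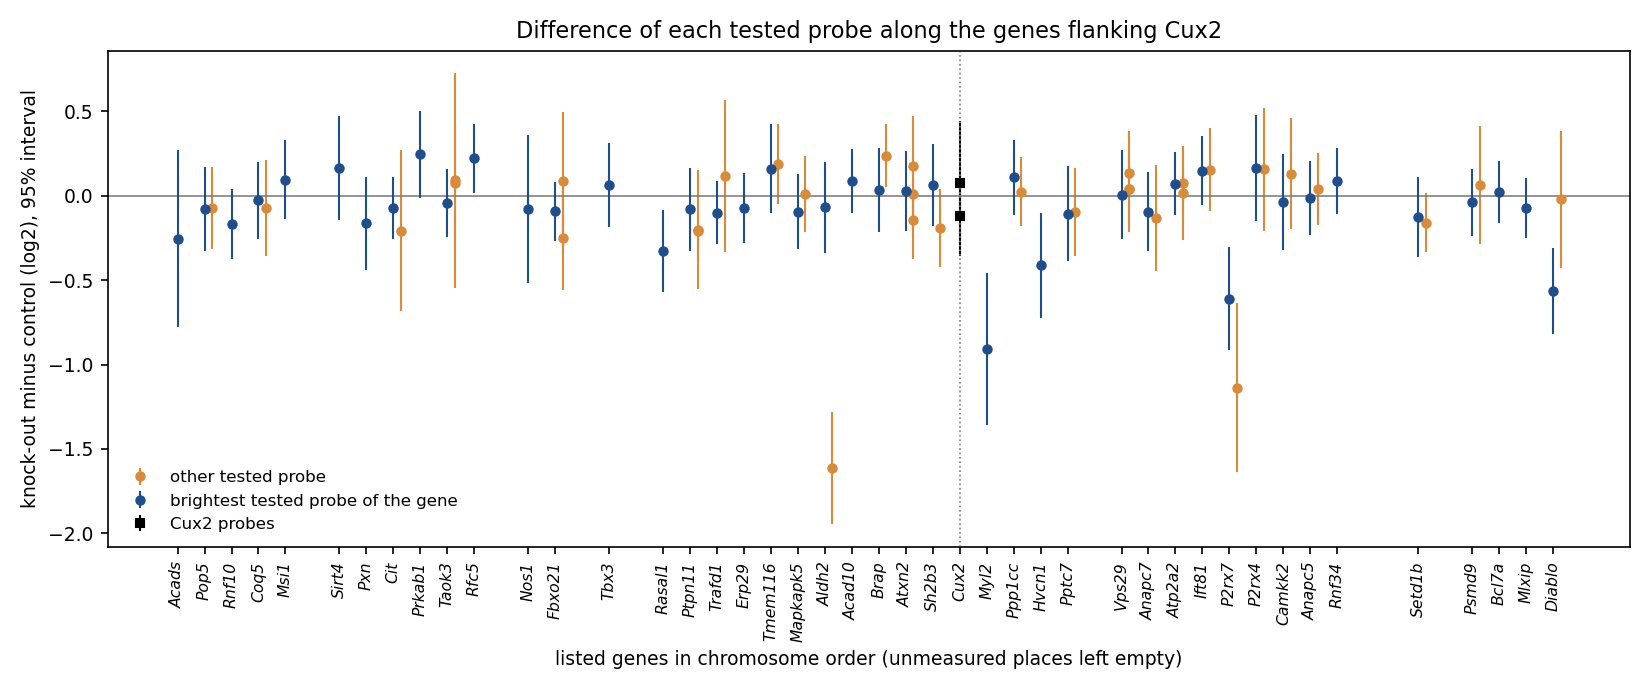
Knock-out minus control (log2, vertical axis) with the 95% interval of the fit for each of the 77 tested probes of the listed genes, in chromosome order along the horizontal axis, with the 2 Cux2 probes as black squares. Blue points are the brightest tested probe of a gene and orange points its other probes. The second probe of Aldh2 lies lowest at -1.61, followed by P2rx7, Myl2 and Diablo, while the other genes lie within 0.5 log2 units of 0.

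Sequence before the start site is shown for the genes with the next largest differences after Aldh2, namely P2rx7, Diablo and Myl2, which all lay lower in the knock-outs and were picked after their values were seen. Each window holds the 250 bases before the gene's most upstream annotated start, in the direction of the gene, from RefSeq on GRCm38.p6. The same choice was made for every gene counted below, and windows at other starts of a gene were not looked at. They lie at chr5:122643677-122643926 (plus strand), chr5:123524165-123524414 (minus strand) and chr5:122092474-122092723 (plus strand). Capitals mark the GC box GGGCGG and the CCAAT box on either strand.
P2rx7: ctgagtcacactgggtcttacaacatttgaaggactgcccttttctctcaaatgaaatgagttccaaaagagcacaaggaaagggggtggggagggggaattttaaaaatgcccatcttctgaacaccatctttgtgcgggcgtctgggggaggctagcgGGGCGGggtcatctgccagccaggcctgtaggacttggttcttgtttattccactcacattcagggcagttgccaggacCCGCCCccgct
Diablo: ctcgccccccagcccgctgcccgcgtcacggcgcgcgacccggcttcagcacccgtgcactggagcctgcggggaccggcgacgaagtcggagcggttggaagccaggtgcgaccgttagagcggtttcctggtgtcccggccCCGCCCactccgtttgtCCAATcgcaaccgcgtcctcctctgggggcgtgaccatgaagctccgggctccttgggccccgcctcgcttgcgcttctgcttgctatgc
Myl2: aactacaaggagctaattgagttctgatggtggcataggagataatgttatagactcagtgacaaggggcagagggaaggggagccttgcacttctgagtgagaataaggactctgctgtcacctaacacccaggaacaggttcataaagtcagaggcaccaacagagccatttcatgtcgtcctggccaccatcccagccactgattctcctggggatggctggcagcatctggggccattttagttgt

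The P2rx7 window held 2 GC boxes, 1 on each strand, and 6 CpG pairs. The Diablo window held 1 CCAAT box and 1 GC box, and 30 CpG pairs. The Myl2 window held neither, nor a TATAAA match, and 1 CpG pair. Windows were given for 39 of the 52 listed genes. Of these 39, 24 held a GC box (61.5%, against 33.0% of 27025 windows of all genes), 10 held a CCAAT box (25.6% against 34.5%) and 1, that of Rnf10, held TATAAA (2.56% against 13.0%). The letters ATCGAT, the core that Cut homeodomain proteins are known to bind, were in 0 of 39 listed windows and in 0.729% of all windows. The listed windows held a median of 22 CpG pairs and all windows a median of 6. These are matches of letters in this window only, on both strands, and matches of different motifs may overlap. The windows of all genes were not limited to genes on the array or detected in cortex, so the shares set unlike groups side by side.

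Aldh2, the mitochondrial aldehyde dehydrogenase that clears acetaldehyde and products of lipid peroxidation, lies 5 places before Cux2 on the list and was the gene with the called probe. The probe A_52_P13109, made to the cDNA AK163452, read -1.45, -1.48 and -1.49 in controls 15, 62 and 16. In knock-outs 53, 48 and 54 it read -3.32, -2.79 and -3.14. All 3 knock-outs lay below the narrow range of the controls, and the probe was well above background on all 6 arrays. The signal fell by 1.61 (SE 0.139, 95% interval -1.95 to -1.28), which is 3.06-fold lower, with limma adjusted p = 0.0178. The difference was -1.52 within slide 1 and -1.83 within slide 2, and with slide as a block it was -1.68 (limma adjusted p = 0.0479). The call was lost without control 15 (limma adjusted p = 0.152), control 62 (0.0769), control 16 (0.140) or knock-out 54 (0.0826), while the difference lay between -1.76 and -1.50 with any 1 array left out. It was also lost with weaker filters on dim probes, which test more probes (limma adjusted p = 0.0858 and 0.200).

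The other Aldh2 probe gave another picture. A_52_P116134, made to the RefSeq transcript NM_009656 and the brighter of the pair, read 1.95, 2.02 and 2.31 in the controls (15, 62, 16) and 1.97, 2.03 and 2.08 in the knock-outs (53, 48, 54). The groups overlapped, and the difference was -0.07 (95% interval -0.34 to 0.20, limma adjusted p = 0.936). The sign of this small difference turned to 0.11 without scaling between arrays and to 0.04 without control 16. Set against each other on the same array, which removes scaling, the probes differed by -1.55 (SE 0.165, 95% interval -1.95 to -1.15). This difference between the Aldh2 probes did not pass over all 8242 pairs of probes of 1 gene (limma adjusted p = 0.0629), whereas it passed with a trended, robust variance (0.0443) and with array weights (0.0481). Summed over the 4 astrocyte markers, whose brightest probes were all above background on all 6 arrays, the log2 level was 5.94 to 6.17 in controls and 5.64 to 5.80 in knock-outs. Signals were summed before the log, so the sum mostly follows S100b, the brightest at 5.66. The brightest probes differed by -0.30 for S100b, -0.16 for Aldh1l1, -0.58 for Gfap and -0.08 for Aqp4. Other probes did not all share this, with -0.12 and -0.14 for Gfap and -0.0023 and 0.0015 for Aqp4. The part of these markers in the Aldh2 result was not tested.

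**Figure D2:**
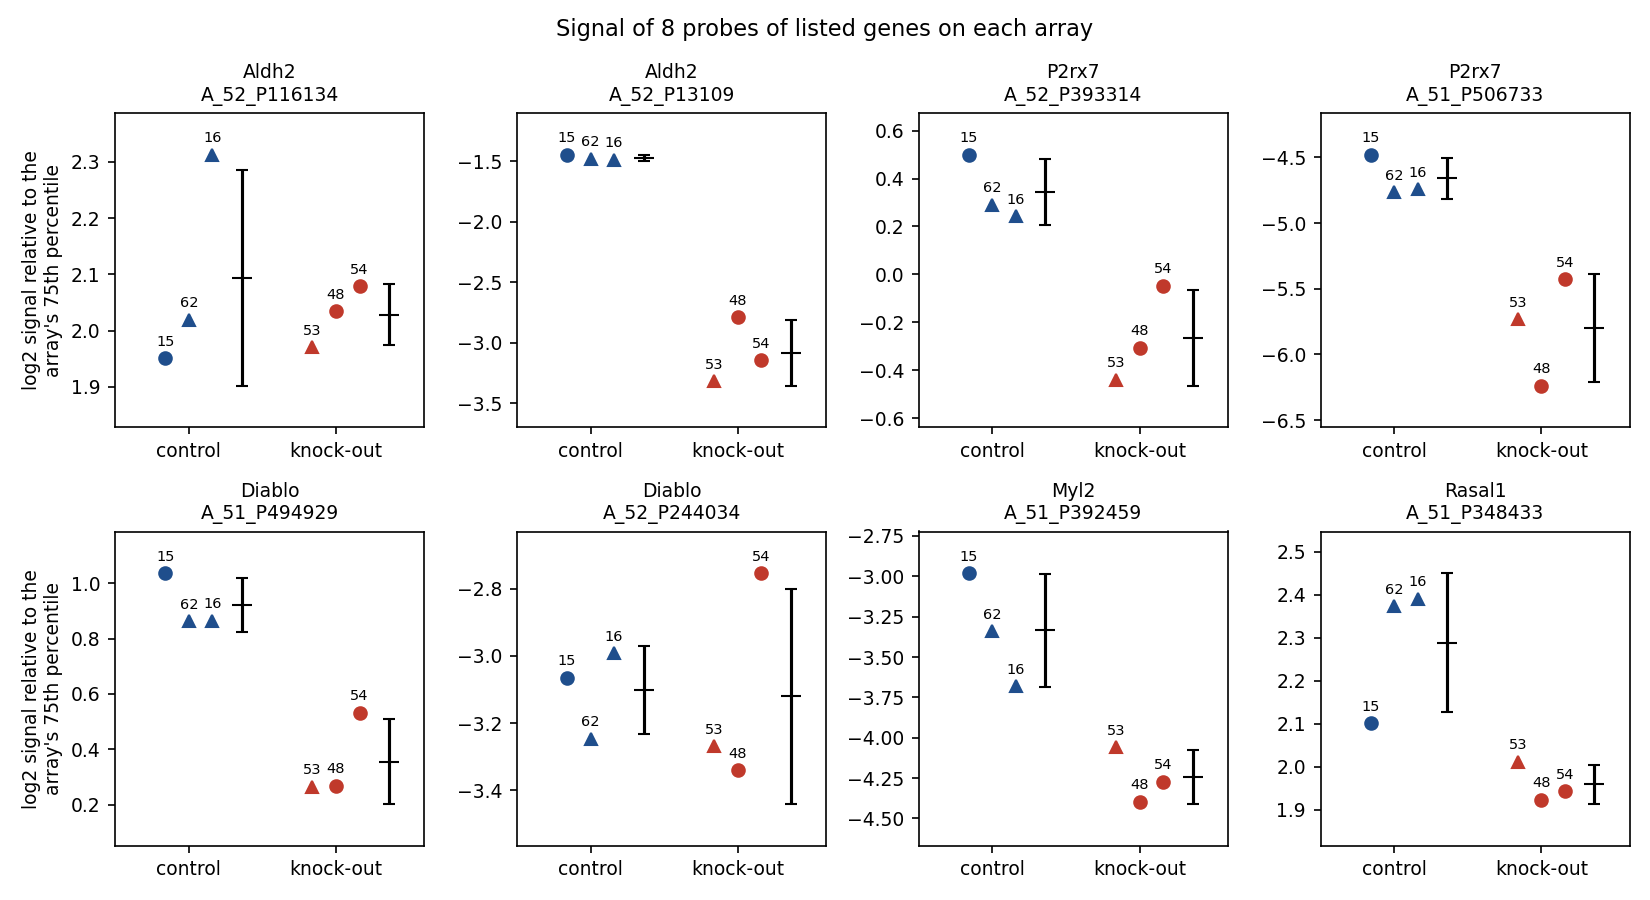
Log2 signal relative to the 75th percentile of the array (vertical axis, with its own range in each panel) for 8 probes of Aldh2, P2rx7, Diablo, Myl2 and Rasal1 on each array, numbered by sample. Blue is control and red is knock-out, circles are slide 1 and triangles slide 2, and bars are the mean and SD over 3 arrays. The second Aldh2 probe stood near -1.5 on the controls and near -3 on the knock-outs, while the first overlapped between the groups.

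Among the channels and transporters of the region, P2rx7 differed most in size, though it did not pass. P2rx7, an ATP-gated channel of microglia and other immune cells, lies 10 places after Cux2. Its brighter probe A_52_P393314 read 0.50, 0.29 and 0.24 in controls 15, 62 and 16, and -0.44, -0.31 and -0.05 in knock-outs 53, 48 and 54. All knock-outs lay below all controls, with a difference of -0.61 (95% interval -0.92 to -0.30), limma adjusted p = 0.259. The difference was -0.68 within slide 1 and -0.71 within slide 2.

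The dimmer P2rx7 probe, A_51_P506733, read -4.48, -4.76 and -4.74 in the controls (15, 62, 16) and -5.73, -6.24 and -5.43 in the knock-outs (53, 48, 54). It was above background on all 3 controls but only on knock-out 54, so the fitted difference of -1.14 (limma adjusted p = 0.202) rests in part on unmeasured signal. Neither P2rx7 probe passed the threshold, and over 16 to 17 other settings of the analysis both stayed lower, with the brighter between -0.72 and -0.43 and the dimmer between -1.32 and -0.36, its smallest size being with normexp background correction. Of the microglial markers 6 of 6 were lower by their brightest probes, but not alike. The differences were -0.77 for C1qb, -0.63 for C1qc, -0.53 for C1qa, -0.37 for Tmem119, -0.35 for Aif1 and only -0.01 for Cx3cr1. A dimmer Cx3cr1 probe, above background on 5 arrays, differed by -0.35. The log2 of the summed signal was 4.369 to 4.771 in controls and 3.999 to 4.104 in knock-outs. Signals were summed before the log, so brighter genes such as C1qc, at 2.65, weigh more. The brightest probes of the 6 were above background on all arrays, and the part of these markers in the P2rx7 result was not tested.

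Hvcn1, the voltage-gated proton channel that microglia and other phagocytes carry, read -2.18, -2.01 and -1.82 in the controls (15, 62, 16) and -2.49, -2.53 and -2.22 in the knock-outs (53, 48, 54). All knock-outs lay below all controls, with a difference of -0.41 (95% interval -0.72 to -0.10, limma adjusted p = 0.506). It was -0.20 within slide 1 and -0.58 within slide 2. The same microglial markers were lower, Cx3cr1 hardly so at its brightest probe, and their part in the Hvcn1 result was likewise not tested.

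P2rx4, the ATP-gated channel gene next to P2rx7 on the list, lay on the other side of 0 from P2rx7, Hvcn1 and the microglial markers. Its probes differed by 0.17 (95% interval -0.15 to 0.48) and 0.16 (95% interval -0.21 to 0.52), and the groups overlapped at both. Without control 15 the first of these was 0.03. Neither P2rx4 probe passed. Atp2a2, the calcium pump of the endoplasmic reticulum, had 3 tested probes with differences of 0.07, 0.08 and 0.02, all with overlapping groups, and 1 more probe that was above background on no array. Camkk2, a calcium-dependent kinase that acts upstream of AMPK, differed by -0.04 and 0.13 at its probes. Orai1, the pore of store-operated calcium entry, was carried as Tmem142a and stood at -2.00 in controls and -1.99 in knock-outs, a difference below 0.01. Nos1, the neuronal nitric oxide synthase, differed by -0.08 at a dim probe averaged over 10 spots, and by 0.09 at a probe to a cDNA that the gene table assigns to it.

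Among the other mitochondrial genes, Diablo had the largest difference. Diablo is released from mitochondria in apoptosis and relieves the block of caspases by IAP proteins, and it lies 22 places after Cux2. Its brighter probe A_51_P494929, made to NM_023232, read 1.04, 0.86 and 0.87 in controls 15, 62 and 16, and 0.27, 0.27 and 0.53 in knock-outs 53, 48 and 54. All knock-outs lay below all controls, with a difference of -0.56 (95% interval -0.82 to -0.31), limma adjusted p = 0.214. The difference was -0.63 within slide 1 and -0.60 within slide 2.

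The second Diablo probe, A_52_P244034 to the cDNA BC024780, did not share this. It read -3.07, -3.25 and -2.99 in the controls (15, 62, 16) and -3.27, -3.34 and -2.75 in the knock-outs (53, 48, 54), where knock-out 54 was the highest of all arrays. Its difference was -0.02 (95% interval -0.42 to 0.39), and its sign turned with the scaling, the background correction or an array left out. Within arrays the second probe differed from the first by 0.55 (95% interval 0.25 to 0.84, limma adjusted p = 0.341). In Diablo, then, it was the brighter probe that lay lower, and in Aldh2 the dimmer.

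The remaining mitochondrial genes differed little. Acads, the short-chain acyl-CoA dehydrogenase, lies farthest before Cux2 on the list and differed by -0.25 (95% interval -0.78 to 0.27) with overlapping groups, and by -0.04 without knock-out 54. Acad10, of the same enzyme family and next to Aldh2, differed by 0.09. Sirt4, a mitochondrial sirtuin, differed by 0.16 over all arrays, with -0.11 within slide 1 and 0.38 within slide 2. Coq5, a methyltransferase of coenzyme Q synthesis, differed by -0.03 and -0.07, and the mitochondrial phosphatase Pptc7 by -0.11 and -0.09, with overlapping groups at all 4 probes.

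Myl2, the regulatory light chain of myosin in cardiac ventricle and slow muscle, is the next listed gene after Cux2. Its probe read -2.98, -3.34 and -3.68 in controls 15, 62 and 16, and -4.06, -4.40 and -4.27 in knock-outs 53, 48 and 54. All knock-outs lay below all controls, which were themselves widely spread, and 2 of the 3 knock-outs were above background. The difference was -0.91 (95% interval -1.36 to -0.46), limma adjusted p = 0.253, and it was -1.35 within slide 1 and -0.55 within slide 2. With normexp background correction it was -0.50. On the other side, the nearest listed gene is Sh2b3, an adaptor that restrains cytokine receptor signalling. Its probes differed by 0.06 and -0.19, and set against each other within arrays by -0.25 (95% interval -0.51 to 0.00448, limma adjusted p = 0.782), with the knock-outs below the controls.

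Of the genes for growth-factor and kinase signalling, Rasal1, a GTPase-activating protein for Ras, was lowest. It read 2.10, 2.37 and 2.39 in the controls (15, 62, 16) and 2.01, 1.92 and 1.94 in the knock-outs (53, 48, 54), and control 15 lay nearer to the knock-outs than to the other controls. The difference was -0.33 (95% interval -0.57 to -0.09, limma adjusted p = 0.496), with -0.17 within slide 1 and -0.37 within slide 2.

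Ptpn11, the phosphatase SHP2 that relays receptor signals to Ras, had 3 tested probes, all lower. The probe with the lowest p read 3.33, 3.44 and 3.35 in the controls (15, 62, 16) and 3.15, 3.12 and 3.22 in the knock-outs (53, 48, 54). The groups did not overlap there, with a difference of -0.21 (limma adjusted p = 0.567), whereas they overlapped at the other 2 probes, which differed by -0.08 and -0.20.

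Brap, a ubiquitin ligase that binds BRCA1 and modulates Ras signalling, was 1 of the 2 genes with a probe higher at an unadjusted p under 0.05. That probe read -4.30, -4.30 and -4.16 in the controls (15, 62, 16) and -4.00, -4.04 and -4.02 in the knock-outs (53, 48, 54), with no overlap. The difference was 0.24 (limma adjusted p = 0.518), while the brighter Brap probe differed by 0.04 with overlapping groups. With normexp background correction the difference of the first was 0.05 (limma adjusted p = 0.933). Prkab1, a regulatory subunit of AMPK, differed by 0.25 (95% interval -0.01 to 0.51), the largest positive difference among the tested probes of the listed genes, yet the lowest knock-out lay below the highest control.

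The other signalling genes stayed closer to 0 with overlapping groups. Mapkapk5, a kinase downstream of p38 MAP kinases, differed by -0.09 and 0.01. Taok3, a kinase upstream of stress-activated MAP kinases, differed by -0.04 at its bright probe and by 0.09 and 0.08 at its dim tested probes. Cit, the citron kinase of cytokinesis, differed by -0.07 and -0.21, and by -0.08 at a probe to a cDNA under a clone name. Ppp1cc, a catalytic subunit of protein phosphatase 1, differed by 0.11 and 0.03. Pxn, the focal adhesion adaptor paxillin, differed by -0.16 at its tested probe. An untested Pxn probe stood at -2.77 on knock-out 48 and between -8.33 and -5.22 on the other 5 arrays, so 1 array stood apart there.

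Among the genes for DNA, RNA and chromatin, Rfc5, a subunit of the clamp loader of DNA replication, was the second with a probe higher at an unadjusted p under 0.05. It read 0.46, 0.59 and 0.36 in the controls (15, 62, 16) and 0.72, 0.68 and 0.68 in the knock-outs (53, 48, 54), with no overlap. The difference was 0.22 (95% interval 0.02 to 0.43, limma adjusted p = 0.591) and was 0.22 within slide 1 and 0.24 within slide 2.

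Setd1b, a histone H3 lysine 4 methyltransferase, was lower at both of its probes, by -0.13 with overlapping groups and by -0.16 with groups that did not overlap (limma adjusted p = 0.670). Without scaling between arrays the second of these was 0.02. Atxn2, an RNA-binding protein of stress granules, lies 2 places before Cux2 and had 4 tested probes that differed by 0.03, 0.01, 0.18 and -0.14, in both directions and with overlapping groups. Msi1, an RNA-binding protein of neural progenitors, differed by 0.10 at its tested probe. An untested Msi1 probe was above background on 2 controls and 0 knock-outs. It differed by -1.07 with overlapping groups, which rests largely on unmeasured signal. Pop5, a protein of RNase P, differed by -0.08 and -0.07, and Tbx3, a T-box repressor, by 0.07. Bcl7a, a subunit of BAF chromatin remodelling complexes, differed by 0.02, and Mlxip, a partner of Mlx in glucose sensing, by -0.07. Med13l, of the Mediator kinase module, was carried as Thrap2 and differed by 0.23, 0.22 and -0.02 at its 3 probes, all with overlapping groups.

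Ubiquitin and protein handling genes differed by at most 0.25 in size. Rnf10, a RING finger ubiquitin ligase, read 2.99, 3.00 and 2.91 in the controls (15, 62, 16) and 2.90, 2.82 and 2.67 in the knock-outs (53, 48, 54). The knock-outs lay just below the controls, with a difference of -0.17 (limma adjusted p = 0.716). Fbxo21, an F-box protein, had its brightest probe lower by 0.09 with no overlap, and its other probes differed by -0.25 and 0.09. Rnf34, a ubiquitin ligase of apoptosis signalling, differed by 0.09.

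Both subunits of the anaphase-promoting complex in the region were near 0. Anapc7 differed by -0.09 and -0.13, and Anapc5 by -0.01 at a probe fitted without control 15, whose spot was flagged there as an outlier, and by 0.04 at the other. Psmd9, a chaperone of proteasome assembly, differed by -0.04 and 0.06, and Erp29, a chaperone of the endoplasmic reticulum, by -0.07. Trafd1, a restraint on innate immune signalling, had its bright probe at -0.10 with the knock-outs below the controls and its dim probe at 0.12 with overlap.

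The transport genes Vps29 and Ift81 differed little. Vps29, a retromer subunit, had 4 tested probes with differences of 0.01, 0.04, 0.04 and 0.14, and Ift81, of intraflagellar transport, differed by 0.15 and 0.16, all with overlapping groups. With slide as a block 2 of the Vps29 probes turned to -0.05 and -0.01, and the probe at 0.14 was at -0.06 within slide 1. Clip1, a microtubule plus-end protein carried as Rsn, differed by -0.11, 0.04 and 0.08. Tmem116, a membrane protein, differed by 0.16 and 0.19 with overlapping groups. No probe was matched to Rhof or Ksr2.

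The probes of 1 gene were compared on the same array. The tested listed genes gave 34 pairs of a brightest and another probe, of which 24 differed in the same direction and 10 in opposite directions, against 38.4% of all 8242 pairs on the array. After adjustment 0 listed pairs passed in limma, against 0.0364% of all pairs, and 3 had an unadjusted p under 0.05, those of Aldh2, Diablo and P2rx7, against 6.48%. The within-array differences did not overlap between the groups for 4 pairs, those 3 and Sh2b3, against 11.1% of all pairs. In P2rx7 the second probe differed from the first by -0.53 (95% interval -0.95 to -0.11, limma adjusted p = 0.648), at a signal that was below background on 2 knock-outs. With normexp background correction this turned to 0.20 (limma adjusted p = 0.915).

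**Figure D3:**
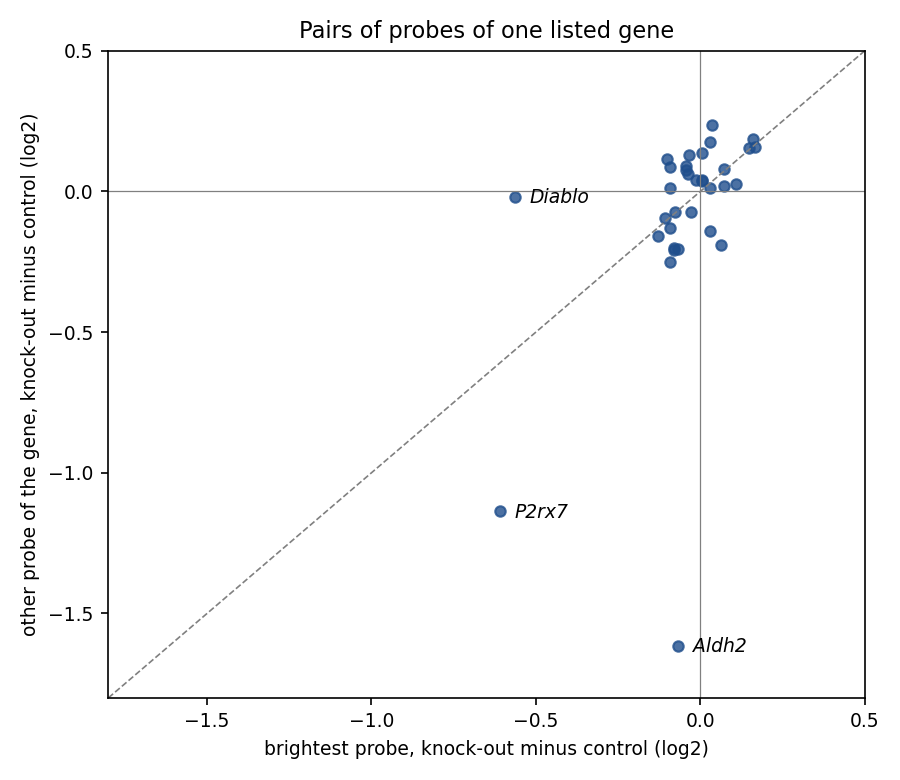
Knock-out minus control (log2) of another tested probe of a gene (vertical axis) against that of its brightest probe (horizontal axis), 1 point for each of the 34 pairs, with the dashed line at equal differences. Aldh2 lies far below the line at -0.07 and -1.61, P2rx7 below it and Diablo above it, and the other pairs lie near 0 on both axes.

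By the brightest tested probe of each gene, 17 listed genes were higher and 26 lower, with a median difference of -0.04 against -0.01 over all 17265 tested genes. The median size of the difference was 0.09 in both. The listed genes had 3 differences over 0.5 in size, those of Myl2, P2rx7 and Diablo, or 6.98% against 4.51% of all tested genes. The groups did not overlap for 9 of the 43, which is 20.9% against 13.7%, with 8 below and 1 above. At an unadjusted limma p under 0.05 there were 5 lower genes and 1 higher, beside 4.37% and 3.9% of all genes. The 3 differences over 0.5 by the brightest probe all lay after Cux2. There 4 of 18 genes (22.2%) had an unadjusted p under 0.05 at that probe, against 2 of 25 (8%) before it. Within 10 places of Cux2 it was 3 of 19 genes (15.8%) and farther away 3 of 24 (12.5%), and no test was made of these small counts. They leave out the dimmer probes of Aldh2 (-1.61), Ptpn11 (-0.21) and Brap (0.24), which had an unadjusted limma p under 0.05. These genes lie before Cux2 and within 10 places of it, so both contrasts depend on the choice of probe. Myl2, which is in the counts of lower genes here, was above background on 3 controls and 2 knock-outs. It thus passed the filter through the controls alone.

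Other genes of chromosome 5 had like shares. Together the listed genes had an unadjusted limma p under 0.05 in 14% of cases. The 372 other tested genes within 20 Mb of Cux2 had it in 13.2%, the 495 tested genes farther away on chromosome 5 in 11.7%, and genes of other chromosomes in 7.45%. Groups without overlap made up 20.9% of the listed genes, 19.9% of the others within 20 Mb, 19.4% of those farther away and 13.2% on other chromosomes. By chromosome (autosomes and X), the share at an unadjusted p under 0.05 was highest on chromosome 19 (12.9%) and next on chromosome 5 (12.4%), and the lowest was 4.36%. Groups without overlap were most frequent on chromosome 5 (19.7%) and next on chromosome 19 (17.7%). Chromosome 5 also had the most genes past adjustment by their brightest probe, 6 (0.659%), of which 0 were listed genes. The next highest share was 0.341%, on chromosome 4, and chromosome 19 had 0. These are shares of genes that share arrays, given as a description.

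**Figure D4:**
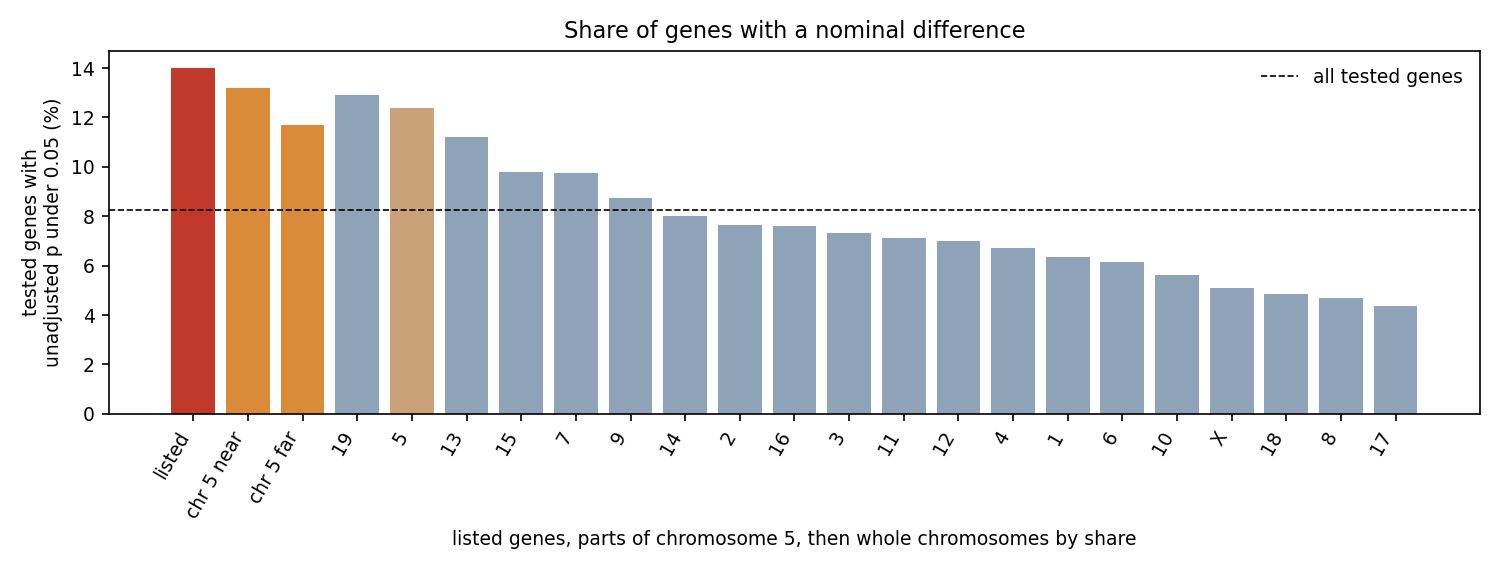
Percentage of tested genes, by their brightest probe, with an unadjusted limma p under 0.05 (vertical axis) for the listed genes, the other chromosome 5 genes within 20 Mb of Cux2 (near) and beyond (far), and each chromosome in order of its share. The listed genes stand at 14%, chromosome 5 at 12.4%, and the dashed line marks 8.27% for all tested genes.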

How the data were processed

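Cortex RNA of 3 controls and 3 knock-outs was amplified and labelled with Cy3, per the labels' protocols. Per the file headers, Agilent Feature Extraction 9.1.3.1 read the spots, and its processed signal is a background-subtracted, detrended intensity. The authors also deposited log2 values, whose columns rank as the scanner signals do and, once sorted, differ by at most 0.000703 at any rank, so they are quantile normalized by that comparison (median 6.75). Their centring is otherwise unknown.

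Log2 processed signals were taken minus each array's 75th percentile. Of 45018 spots, 1639 control spots and 120 outlier-flagged values over the 6 arrays were left out, and spots of a probe were averaged. The 25507 tested probes were fitted in limma 3.58.1 (lmFit, then eBayes, R 4.3.3), two-sided, with Benjamini-Hochberg adjustment over all of them and 95% intervals. A second limma fit took the difference of each probe from the brightest of its gene, over 8242 pairs. The filter uses the group labels, and the number of arrays limits the precision. An exact permutation test of 3 against 3 cannot go below 0.1. Both fits were tested on simulated data.

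Gene order, older names and promoter windows came from RefSeq tables of GRCm38.p6, and the sources used here do not name the build behind the array. Named genes are the called ones, then up to 26 genes by lowest p, with every listed gene accounted for. The genes, marker lists and tests were chosen with earlier results of these data known. Alternatives changed the scaling, background correction, filter, variance model, array weights, slide block, source of values and the arrays used. Figures were drawn with matplotlib.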

Additional observations from a re-analysis of the deposited data

How the results depend on the processing

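No paired analysis was possible because the groups share no replicate numbers. Over 490 values of 29 named probes under the alternatives, 478 kept their direction, and of 58 values within a slide 51 did. The 7 that turned, all within slide 1, were those of Fbxo21 (0.0077), Atxn2 (0.0051), Pxn (0.0726), Vps29 (-0.0569), Sirt4 (-0.1115), the bright Aldh2 probe (0.1057) and the second Diablo probe (0.019). The Aldh2 probe A_52_P13109 lay between -1.76 and -1.25 and passed in 9 of 11 settings with all arrays. Without scaling between arrays, which moves the median of all tested probes by 0.17, differences became 0.0159 for Setd1b, 0.0071 for Rnf10, 0.0323 for Atxn2, 0.012 for Pxn, 0.074 for Trafd1, 0.108 for the bright Aldh2 probe and 0.1553 for the second Diablo probe. The median over listed genes was then 0.1322, and -0.0794 with median centring.

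With normexp background correction, chosen after seeing the data to leave out 18 spots far below background that threw off the planned fit, the second Diablo probe was at 0.0049 and 9 pairs passed, and a Tmem116 probe moved from 0.19 to 0.05. With 1 array above background as the filter, 3 probes, 0 listed probes and 1 pair passed, and with no filter 2 probes, 0 listed probes and 1 pair. With trended, robust variance and with array weights, 11 pairs passed, 1 of them listed (Aldh2). With slide as a block, 15 probes and 1 pair passed. Leaving out 1 array gave 2 (control 15 or 16) to 62 (knock-out 53) called probes, with 13 without knock-out 54. It gave 0 to 1 listed probes, 1 (control 15 or 16) to 9 (control 62) called pairs, with 7 without knock-out 48, a bright Aldh2 probe between -0.1383 and 0.0426 and a second Diablo probe between -0.2028 and 0.0901. The causes were not tested.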
